A study of Mus musculus with 3 samples.

Results

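The 7 genes Bnip3, Hilpda, Pdk1, Ak4, Slc16a3, Fam162a and Mif, all known to be switched on when oxygen is scarce, were followed in islet endocrine cells of mice with and without the endoplasmic reticulum (ER) stress sensor IRE1α in beta cells. They were chosen by name after lower values had been seen in the knockout, so the values that chose them, UMIs per cell in control against knockout, are given as a description with no test. The deposited tables hold 8237 genes, of which 8193 are in the beta-cell table, 186 in the alpha-cell table and 231 in the delta-cell table. All 7 genes are in the beta-cell table, 5 are in the alpha-cell table (not Hilpda or Pdk1) and 2, Bnip3 and Mif, are in the delta-cell table. Values of the others in alpha and delta cells were not analysed here.

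Islets came from 3 NOD/ShiLtJ mice aged 5 weeks, a strain in which diabetes arises through autoimmunity. The knockout group, labelled IRE1[alpha][beta]-/-, had 2 mice and the control group, labelled IRE1[alpha]fl/fl, had 1 mouse with floxed alleles. The labels give the same tamoxifen injections (10 mg per ml) for both genotypes. The promoter that drove Cre is not given in the sources used here. Hand-picked islets were kept in culture overnight before they were dissociated and loaded into droplets. Each value is the mean number of unique molecular identifiers (UMIs, each standing for 1 captured transcript) per cell of a type that the authors had assigned. Beta cells of both knockout mice were pooled by the authors, while alpha and delta cells have 1 value per mouse, called here the first and the second knockout mouse.

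Cells respond to low oxygen through hypoxia-inducible factor (HIF). Its alpha subunit is hydroxylated by prolyl hydroxylases (the Egln genes) and destroyed through the von Hippel-Lindau protein when oxygen is present, and otherwise pairs with Arnt on DNA that holds the core letters ACGTG or GCGTG. Its targets carry sugar breakdown to lactate, hold pyruvate out of the mitochondria and remove mitochondria. In beta cells this state is known to blunt insulin release in response to glucose.

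The members lie on 7 different chromosomes, and all 7 carried at least 1 HIF core (ACGTG or GCGTG, read on both strands) between 250 bases before and 50 bases after a RefSeq transcription start site of build GRCm38.p6, the assembly of mm10. For genes with several start sites the window with the most matches was taken, and the overlapping matches of CACGTG, which reads alike on both strands, count as 2. The stretches below show the members with clustered or palindromic cores; capitals mark the core on either strand.

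Bnip3, chr7:138909522-138909638, minus strand, bases 132 to 16 before the start site: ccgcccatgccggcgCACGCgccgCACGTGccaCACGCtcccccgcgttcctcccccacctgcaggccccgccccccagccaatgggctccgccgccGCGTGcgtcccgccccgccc
Fam162a, chr16:36071595-36071657, minus strand, bases 96 to 34 before the start site: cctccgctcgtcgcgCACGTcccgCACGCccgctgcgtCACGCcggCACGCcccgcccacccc
Slc16a3, chr11:120949034-120949063, plus strand, bases 33 to 4 before the start site: gcggtgACGTGcgcgggggACGTGccgcgc
Ak4, chr4:101419483-101419512, plus strand, bases 220 to 191 before the start site: tctgccCACGTGcggggaccggcaggggct

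Fam162a had 6 matches in its window and Bnip3 had 5, of which 4 lay within the stretch from 117 to 99 bases before the start site. Hilpda and Ak4 had 3 each, Pdk1 and Slc16a3 had 2 each, and Mif had 1, which lay after its start site. Of the 27025 genes with a promoter sequence, 46.7% had a match and 22.9% had 2 or more. Among the 6340 of these that are listed in beta cells the shares were 69.1% and 39.3%, against 7 of 7 and 6 of 7 for the members. The members' windows were rich in G and C (median 71.7%, against 62% for the genes listed in beta cells), and 6 of them lay between 64.3% and 73.3%, while that of Mif was at 54%. Among 1939 listed genes other than members with a GC content in the range of those 6, 76.8% had a match and 48.2% had 2 or more, against 6 of 6 for both. The members also had more windows per gene, 1.71 against 1.30 for listed beta-cell genes. Of the other beta-cell genes lower by a fold of at least 1.5, 140 had a promoter sequence. A match was found in 67.9% of these, close to the share of all listed genes. A match is a run of letters and does not show that HIF binds there.

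**Figure D1:**
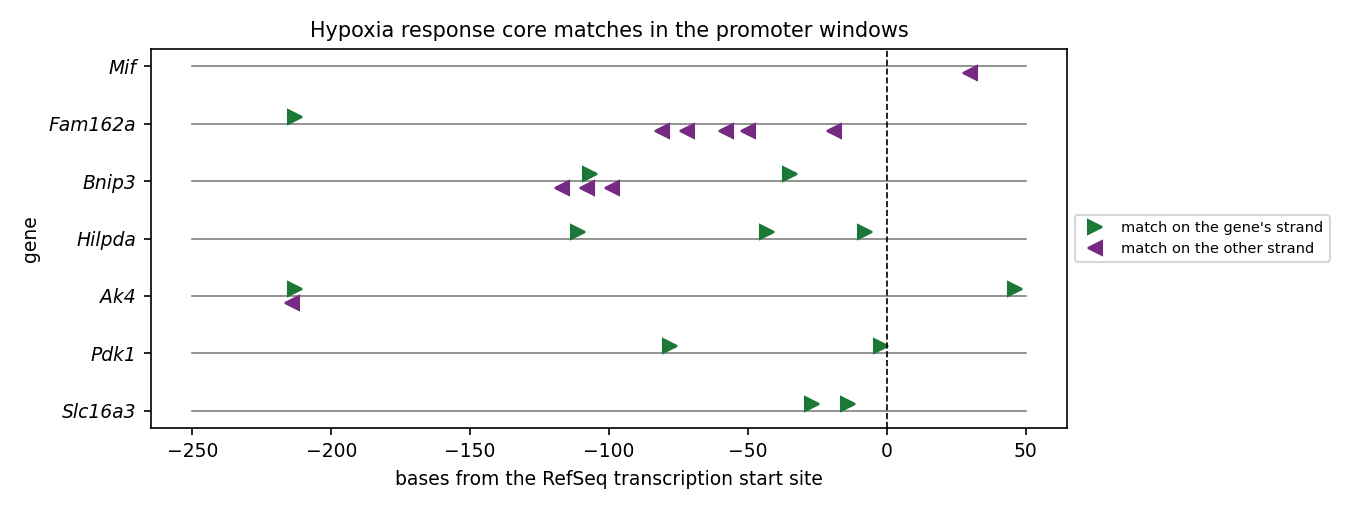
Positions of HIF core matches (ACGTG or GCGTG) in the promoter window of each of the 7 genes, in bases from the RefSeq start site (dashed line), with triangles pointing right for the gene's own strand and left for the other strand. Fam162a holds 6 matches, Bnip3 5, and Mif a single match after the start site.

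In beta cells all 7 genes were lower in the knockout mice. The share of UMIs lost ran from 53.0% for Pdk1 to 85.8% for Ak4. By comparison, 2.47% of all 8193 listed genes were lower by a fold of at least 1.5, the size used here in place of a test, and 5.04% were lower at all. The members ranked from 20 to 86 when all listed genes were ordered from the lowest ratio of knockout over control, which places them within the lowest 1.05%. Their median log2 ratio was -1.46, against 0.54 for all listed genes. Since the members were chosen on these values, nothing further is read from the counts. Below, brackets hold the exact 95% interval of a ratio, which covers counting error in UMIs only, with 829 control and 815 knockout beta cells.

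Each of the 4 members that act on mitochondria was lower. Bnip3 (ENSMUSG00000078566, chromosome 7, 138890836 to 138909519), a receptor on the outer mitochondrial membrane that marks mitochondria for autophagy, went from 2.17 UMIs per cell in the control to 0.778 in the knockout, which is a ratio of 0.359 [0.327 to 0.393]. Fam162a (ENSMUSG00000003955, chromosome 16, 36043761 to 36071594), a mitochondrial protein linked to cell death under hypoxia, had 2.35 and 0.886, a ratio of 0.376 [0.345 to 0.410]. Bnip3 and Fam162a thus had like ratios from like levels, with intervals that overlapped. Ak4 (ENSMUSG00000028527, chromosome 4, 101419277 to 101466995), an adenylate kinase of the mitochondrial matrix, had 0.242 and 0.0344 UMIs per cell, a ratio of 0.142 [0.0918 to 0.211]. Pdk1 (ENSMUSG00000006494, chromosome 2, 71873224 to 71903858), the kinase that shuts off pyruvate dehydrogenase, had 0.240 and 0.113, a ratio of 0.470 [0.363 to 0.605]. Ak4 and Pdk1 had nearly the same level in control beta cells, 201 and 199 UMIs in all, yet 28 and 92 UMIs in knockout beta cells, and their intervals did not overlap.

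The lactate and lipid members were lower as well. Slc16a3 (ENSMUSG00000025161, chromosome 11, 120948480 to 120960868), which encodes the lactate exporter MCT4 and is normally scarce in beta cells, had a level of 0.131 in the control and 0.0233 in the knockout, in UMIs per cell. With 109 and 19 UMIs behind these values, the ratio was 0.177 [0.103 to 0.290]. Hilpda (ENSMUSG00000043421, chromosome 6, 29272488 to 29275446), a small lipid-droplet protein that restrains fat breakdown, had 0.650 and 0.237, a ratio of 0.364 [0.307 to 0.430]. Slc16a3 and Ak4 were the members with the lowest ratios, and the upper bounds of both lay below the lower bounds of the other 5 members.

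Mif (ENSMUSG00000033307, chromosome 10, 75859353 to 75860240), a cytokine gene that beta cells are known to express, was by far the most abundant member and went from 18.1 to 8.06 UMIs per cell, which is a ratio of 0.446 [0.433 to 0.459]. GENCODE M21 also holds the Mif pseudogenes Mif-ps3 and Mif-ps7, whose close copies can take up or lend reads, and neither was in the 3 tables.

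**Figure D2:**
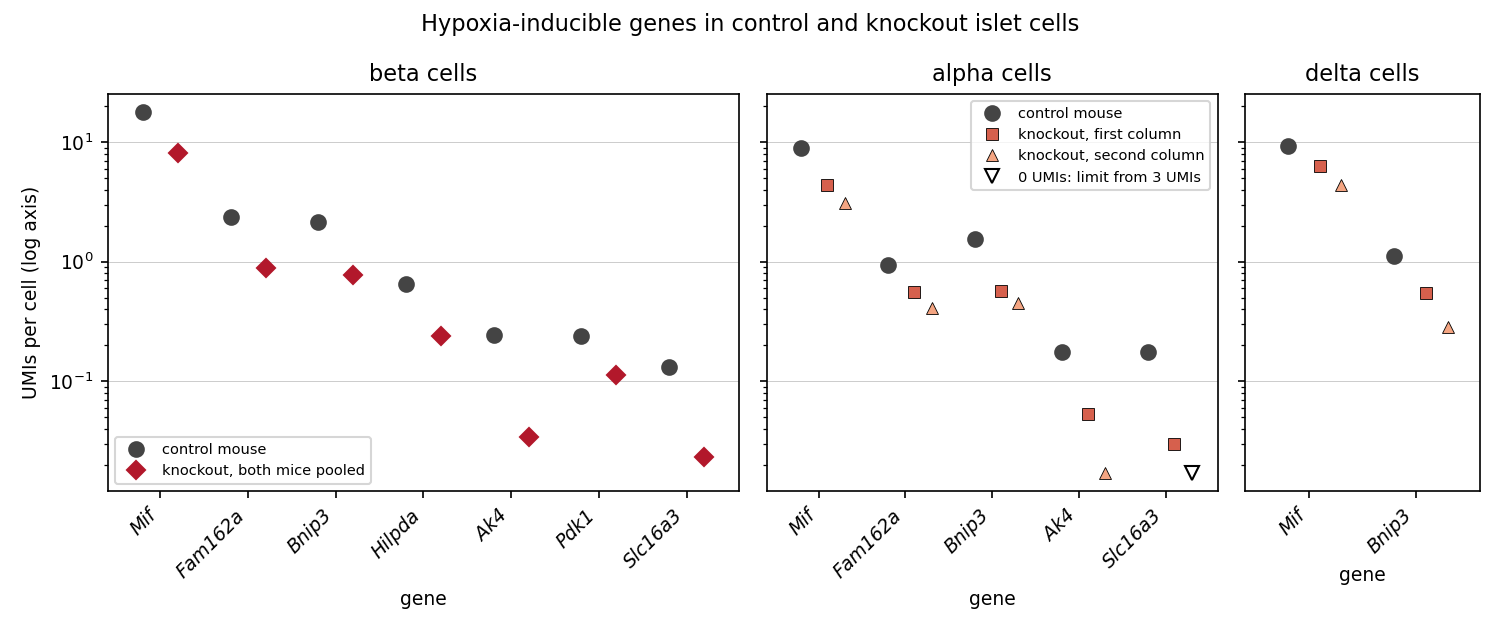
UMIs per cell (log axis) of each gene in the control mouse (circles) and the knockout mice (diamonds for the pooled beta cells, squares and triangles for the first and second mouse in alpha and delta cells); the open triangle is the limit for Slc16a3, with 0 UMIs in the second mouse. Every knockout value lies below the control value of its gene and cell type, and in alpha and delta cells the second mouse lies below the first.

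Alpha cells, which are not the labelled target of the knockout, had lower values of the 5 members listed there. All 5 were lower in both knockout mice, by a fold of at least 1.5 in their mean. Genes were listed because they differed between genotypes, so this count leaves out members that may not have changed. Of all 186 genes listed there, 57% were lower in the mean, 51.1% in both mice and 30.1% by that fold. Bnip3 had 1.56 UMIs per control alpha cell, and 0.572 and 0.452 in the first and the second knockout mouse. The ratios to the control were 0.366 [0.298 to 0.448] and 0.289 [0.221 to 0.375]. Both knockout values were thus far below the control and close to each other, with a mean of 0.512 ± 0.0851 (SD, n = 2).

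Mif had 8.94 UMIs per control alpha cell, and 4.43 and 3.11 in the knockout mice. Fam162a had 0.937 in the control, and 0.559 and 0.407 in the knockout mice. Of the 5 genes it had the highest mean ratio, 0.516. The scarce members, Ak4 and Slc16a3, both had 0.176 UMIs per control alpha cell, or 25 UMIs in 142 cells. Ak4 had 0.0526 and 0.0169 in the knockout mice (16 and 3 UMIs). Slc16a3 had 0.0296 in the first mouse (9 UMIs) and none in 177 cells of the second, which allows up to 0.0169 UMIs per cell. The exact upper bound of that mouse's ratio to the control was 0.128. Ak4 and Slc16a3 were the lowest members in alpha cells, as they were in beta cells, and ranked 5 and 2 of 186 genes. Listed markers of beta and PP cells were lower in these alpha cells too. The 3 listed of 6 beta-cell markers summed to 434 UMIs per cell in the control and to 251 and 304 in the knockout mice. Ppy, 1 of 2 PP-cell markers, was at 427, 341 and 323. The 2 listed of 3 delta-cell markers summed to 52.5, 19.5 and 51.9. Of these, Rbp4 was at 15.7, 7.43 and 9.90, while Sst was at 36.8, 12.1 and 42.0, above the control in the second mouse. The mitochondrially encoded genes summed to 404, 508 and 427. The part of these measures in the members' alpha-cell values was not tested.

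Delta cells had Bnip3 and Mif in their table, and both were lower in both knockout mice and by a fold of at least 1.5 in the mean. Here too genes were listed because they differed, so members that may not have changed are left out. Of all 231 genes listed there, 18.6% were lower in the mean, 17.7% in both mice and 16% by that fold. Bnip3 had 1.11 UMIs per control delta cell, and 0.551 and 0.282 in the first and the second knockout mouse, with ratios of 0.497 [0.366 to 0.671] and 0.254 [0.153 to 0.404]. Mif had 9.33 in the control, and 6.28 and 4.42 in the knockout mice. Its ratios were 0.674 [0.614 to 0.739] and 0.474 [0.418 to 0.537], and with the first mouse alone it did not reach the fold of 1.5. Nor did it when scaled to the listed total, where its log2 ratio was -0.45. No knockout value of Bnip3 or Mif overlapped the control value, although that is 1 mouse. In delta cells Iapp, the only listed of 6 beta-cell markers, was at 1825 UMIs per cell in the control and at 797 and 698 in the knockout mice. Control delta cells held 102% of its beta-cell level, so Iapp did not mark beta cells apart from delta cells. Rbp4, 1 of 3 delta-cell markers, was at 137, 84.2 and 69.1. Gcg and Ttr, 2 of 6 alpha-cell markers, summed to 11.0, 163 and 66.1 and the mitochondrially encoded genes to 206, 358 and 264. The part of these measures in the delta-cell values was not tested.

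The fold by which Bnip3 was lower was of like size in the 3 cell types when taken from unscaled UMIs per cell. Its log2 ratio was -1.48 in beta cells, -1.61 in alpha cells and -1.41 in delta cells. The differences between cell types ran from -0.20 (alpha minus delta, counting interval -0.68 to 0.28) to 0.13 (beta minus alpha, -0.16 to 0.43), and the 3 intervals all held 0. Centred on the median of each table, both turned sign and grew, to 0.51 and -0.70. This does not show that the cell types were alike: in delta cells the knockout mice themselves were at -1.01 and -1.98.

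Mif was lowered less in delta cells than in the other cell types. Its log2 ratios were -1.16 in beta and -1.25 in alpha cells, which differed by 0.08 (-0.03 to 0.19), and -0.80 in delta cells. Beta minus delta was -0.36 (-0.50 to -0.23) and alpha minus delta was -0.44 (-0.61 to -0.28). The knockout mice of delta cells were at -0.57 and -1.08, so beta minus delta became -0.088 without the first mouse and -0.59 without the second. The sign of alpha minus delta turned to 0.27 when each table was centred on its own median.

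Fam162a was lowered more in beta cells than in alpha cells, by log2 ratios of -1.41 and -0.96, a difference of -0.45 (-0.79 to -0.12). The second knockout mouse, at -1.20 in alpha cells, was nearer to the beta-cell value than the first, at -0.74. For Ak4 the difference between beta and alpha cells was -0.48 (-1.52 to 0.56) and for Slc16a3 it was 1.08 (-0.23 to 2.38). Without the first knockout mouse the Ak4 difference was 0.56, and without the second the Slc16a3 difference was 0.076. Few UMIs make both intervals wide, and both held 0, so these counts do not settle the sign of either difference. The same mice gave all cell types, so the 3 ratios of a gene are not independent of each other.

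**Figure D3:**
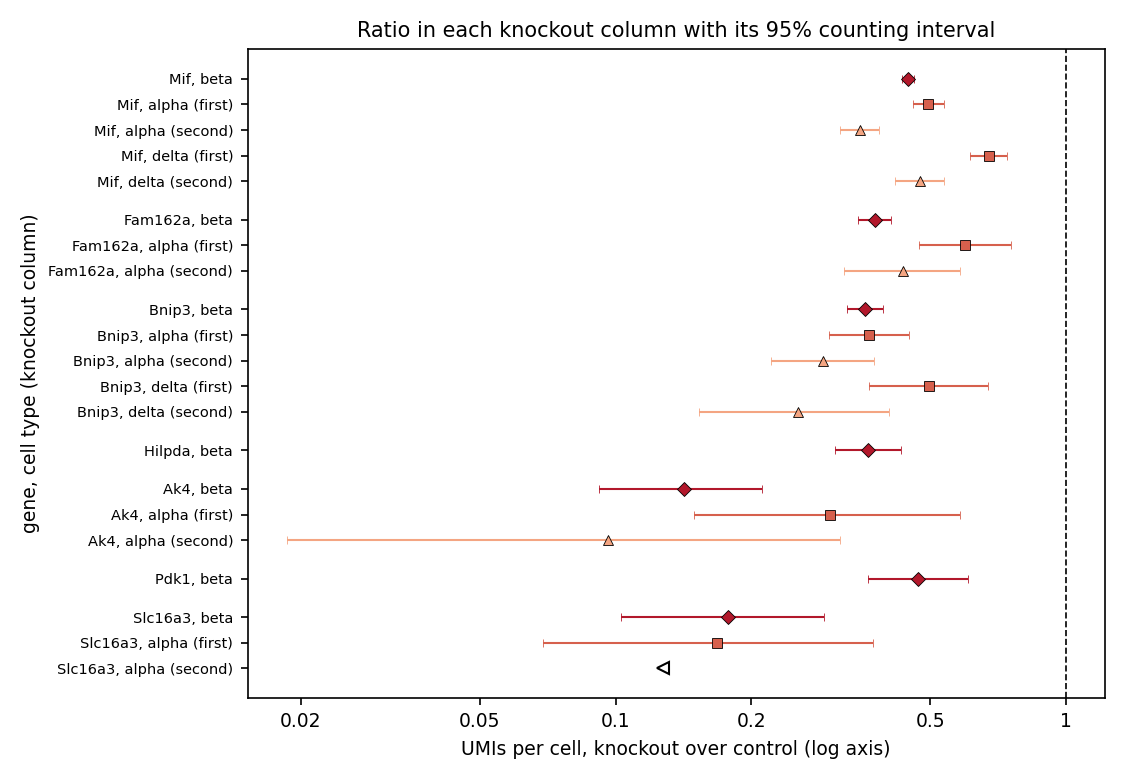
Ratio of UMIs per cell in knockout over control (log axis) for each gene, cell type and knockout column, with bars for the exact 95% counting interval; the open triangle is the upper bound for Slc16a3, with 0 UMIs, and the dashed line is a ratio of 1. All intervals lie below 1, and Mif in delta cells of the first mouse is closest to it at 0.674.

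The knockout mice differed from each other in 1 direction for these genes, a comparison in which the control plays no part. The second mouse was below the first for 5 of 5 members in alpha cells and 2 of 2 in delta cells, where 48.4% and 63.6% of all listed genes were. For Mif the second mouse over the first was 0.703 [0.636 to 0.777] in alpha cells and 0.704 [0.620 to 0.798] in delta cells. For Bnip3 it was 0.790 [0.598 to 1.03] and 0.512 [0.303 to 0.832], and for Fam162a in alpha cells 0.727 [0.544 to 0.964]. For the scarce members in alpha cells it was 0.322 [0.0601 to 1.13] (Ak4) and 0 [0 to 0.870] (Slc16a3). The alpha-cell intervals of Bnip3 and Ak4 thus held 1. Mif, with the most UMIs, thus had the same ratio between the mice in both cell types. UMIs per cell summed over listed genes were 2214 and 2271 in alpha cells of the first and second mouse, and 3070 and 2643 in delta cells.

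Levels in control cells, per gene, also differed between cell types beyond counting error. Bnip3 was highest in beta cells, then alpha, then delta cells (2.17, 1.56 and 1.11 UMIs per cell), with beta over alpha at 1.39 [1.21 to 1.60] and alpha over delta at 1.41 [1.12 to 1.79]. Mif in beta cells was 2.02 [1.91 to 2.14] times its alpha level, while alpha over delta was 0.958 [0.880 to 1.04], an order that these counts do not separate. Fam162a in beta cells was 2.51 [2.11 to 3.02] times its alpha level. Ak4 and Slc16a3 did not differ beyond counting error between beta and alpha cells. The total UMIs per cell of each type were not analysed here, so these levels are per cell and not per transcript captured.

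Alpha cells held 39.8% (Fam162a) to 134% (Slc16a3) of the beta-cell level of the 5 members in the control, while 3 beta-cell markers were there at 1.36% (Ins1), 1.60% (Ins2) and 7.06% (Iapp) of their beta-cell levels. Delta cells held 51.1% of the beta-cell level of Bnip3 and 51.7% of that of Mif, and Iapp was at 102%.

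Over the 8 columns of the 3 tables, the levels most like those of Bnip3 and Mif, among genes listed in all 3, were those of glycolysis genes. Candidates were the 62 other genes listed in all 3 cell types and above 0 in all columns. Genes were listed because they differed between genotypes, so this choice favoured genes that changed in every cell type. The highest Pearson correlations of log2 UMIs per cell with Bnip3 were those of Tpi1 (0.93), Eno1 (0.87) and Pgam1 (0.85). With Mif they were those of Eno1 (0.93), Pgam1 (0.92) and Tpi1 (0.89). Bnip3 and Mif had a correlation of 0.89 with each other. The columns share mice and depth and differ by genotype for all these genes, so the values are a description.

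Glycolysis genes that HIF is known to induce were lower in the same cells. In beta cells 13 of 16 listed genes of this list were lower, 11 of them by a fold of at least 1.5. Of all listed genes 5.04% were lower and 2.47% were lower by that fold. The median log2 ratio of the list was -0.71. Scaled to the listed total, 11 were lower and 5 higher, with a median of -0.37. Centred on the median of all genes, 15 were lower and 1 higher. Ldha, which turns pyruvate into lactate, was at 0.180 [0.138 to 0.232], Slc2a1, the glucose transporter gene, at 0.410 [0.358 to 0.469] and Pgk1 at 0.492 [0.460 to 0.526]. The 3 higher genes were Pfkfb3 (1.38), Gbe1 (1.39) and Pfkm (1.63). In alpha cells 10 of 10 and in delta cells 5 of 5 listed genes were lower in both knockout mice. Of all genes listed there, 51.1% and 17.7% were. The second mouse was below the first for 9 of these 10 and 4 of these 5, against 48.4% and 63.6% of all listed genes. Aldoa was the exception in both cell types (4.43 and 4.44 UMIs per alpha cell).

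A wider list of 50 other genes given as hypoxia-inducible was split in direction. Of its 20 genes listed in beta cells, 5 were lower and 15 higher, with a median log2 ratio of 0.28 (-0.26 relative to all genes). Among all listed genes 5.04% were lower. By a fold of at least 1.5, 7 of the list were higher, where the median ratio of all listed genes was 1.45. The lower genes were Ankrd37 at 0.302 [0.239 to 0.380], Tfrc, the transferrin receptor gene, at 0.423 [0.354 to 0.504], the ER oxidase gene Ero1l at 0.506, the collagen prolyl hydroxylase gene P4ha1 at 0.508 and the histone demethylase gene Kdm3a at 0.565. Each was lower by a fold of at least 1.5, as were 2.47% of all listed genes. At the other end Anxa2 was at 2.51 [2.00 to 3.16] and Smpdl3a at 2.53 [1.97 to 3.26]. Scaled to the listed total without 7 hormone genes, the list split into 10 lower and 10 higher, and centred on the median into 13 and 7.

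Genes of the HIF system itself were mostly higher as UMIs per cell, as were most listed genes. Of 15 listed in beta cells 13 were higher, with a median log2 ratio of 0.35, which is -0.19 relative to all genes. Hif1a, the oxygen-regulated subunit, went from 1.32 to 1.79 UMIs per cell, which is a ratio of 1.35 [1.25 to 1.47], and its partner Arnt was at 1.25 [1.06 to 1.49]. The prolyl hydroxylase gene Egln2 was at 1.54 [1.41 to 1.68]. Relative to the median of all genes Hif1a lay at -0.10 on the log2 scale. Vhl, Egln1, Egln3 and Vegfa were not analysed here.

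Most listed paralogs and partners of the members had ratios above 1 in beta cells, and so had 94.96% of the whole table. Bnip3l, the paralog of Bnip3 and also a mitophagy receptor, was at 1.14 UMIs per cell in the control and 1.16 in the knockout, which is a ratio of 1.02 [0.932 to 1.12]. Of the 14 listed genes of mitophagy and LC3 13 were higher, up to Pink1 at 2.31 [1.97 to 2.73]. The 1 lower gene was Gabarap at 0.944, and none was lower by a fold of 1.5. Centred on the median of all genes, 10 of these 14 were lower. All 12 listed genes of other adenylate kinases and AMP handling were higher, with Ak1 at 3.33 [2.68 to 4.18], against 0.142 for Ak4, and 4 of the 12 were lower when centred. Around Pdk1, the subunit genes of its substrate complex were at 1.27 (Pdha1), 1.26 (Pdhb) and 1.31 (Dlat), and the pyruvate carrier gene Mpc1 at 0.960. All 7 listed genes of that group were lower when centred.

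Of the 6 listed genes of lactate handling and transport around Slc16a3, 2 were lower: Ldha, at 0.180 as given above, and Bsg. Bsg, whose product carries MCT4 to the cell surface, was at 0.916 [0.886 to 0.948] in beta cells and at 7.84 against 10.8 UMIs per cell in alpha cells. All 8 listed lipid-droplet genes were higher, among them Pnpla2, the lipase that Hilpda restrains, at 1.39 [1.22 to 1.59], and 2 of the 8 were lower when centred. Ddt, the paralog of Mif, was at 0.953 [0.871 to 1.04], while the Mif receptor genes Cd74 and Cd44 were at 1.96 and 2.00. The direction of those close to 1 depended on the scale: Bnip3l, Bsg, Ddt and Gabarap were above 0 on the log2 scale when scaled to the listed total, and below it without the hormone genes or when centred on the median. All 7 members stayed below 0 on each of these scales.

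**Figure D4:**
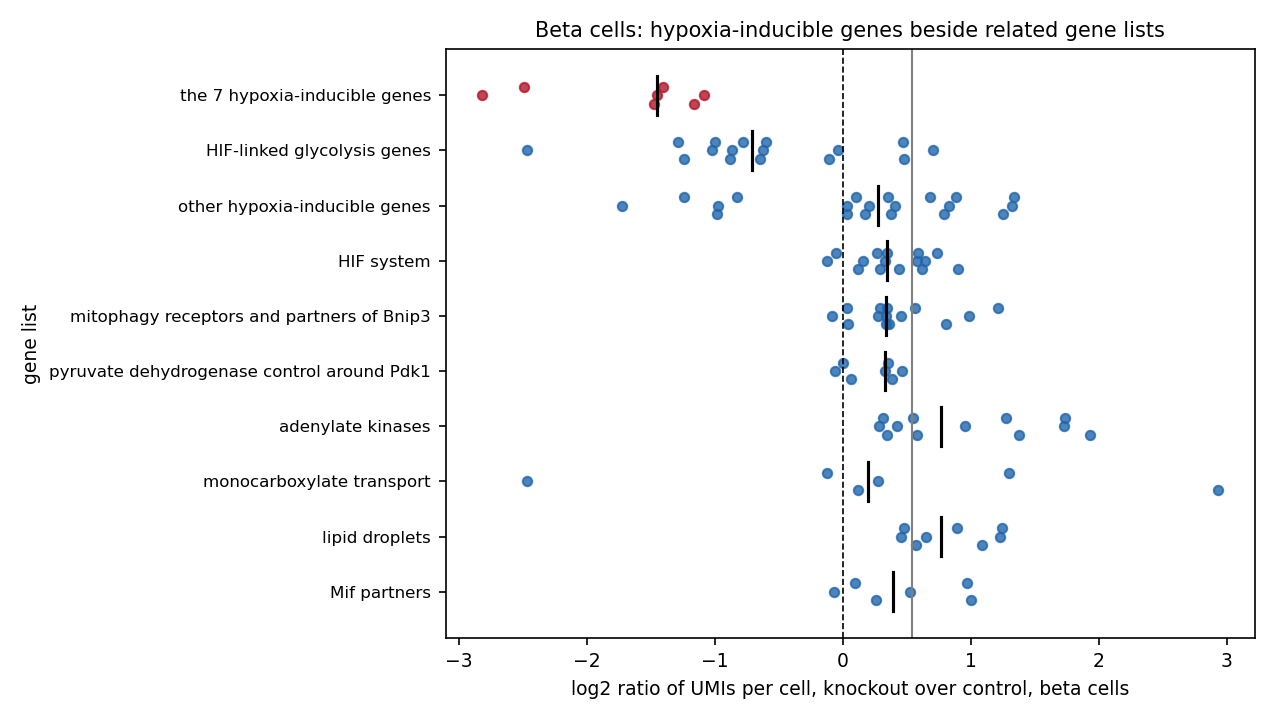
Log2 ratio of UMIs per cell in knockout over control beta cells for every listed gene of 10 gene lists, with black bars for the list medians, a dashed line at 0 and a grey line at the median of all listed genes (0.54). The 7 hypoxia-inducible genes lie from -2.82 to -1.09, most listed glycolysis genes lie below 0, and the partner lists lie mostly between 0 and the grey line or above it.

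Other measures also differed between the genotypes. In beta cells the 6 beta-cell markers, all lower, summed to 22059 UMIs per control and 13364 per knockout cell, and 3 of 4 red-cell genes to 0.0639 and 22.6. The 3 listed of 6 alpha-cell markers summed to 48.8 and 113, the 3 of 3 delta-cell markers to 39.6 and 64.6 and both PP-cell markers to 21.7 and 107. Listed UMIs without the 7 hormone genes were alike in alpha cells (1637 in the control, 1609 and 1603 in the knockout mice) and went from 9396 to 11167 in beta cells. Gcg in alpha and Sst in delta cells were not analysed here, so those labels are the authors'. Ern1, the targeted gene, was at 1.46 [1.29 to 1.66] in knockout beta cells, close to the median ratio of all listed genes there (1.45). The part of these measures in the members' values was not tested, and genotype cannot be told apart from other ways in which the single control mouse differed.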

How the data were processed

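The authors deposited 1 table per endocrine cell type with a signal value per gene and column, the mean number of UMIs per cell, not scaled for depth. Per the submitters' processing notes, Cell Ranger 3.0.0 and mm10 were used; the sources used here do not give the cell filter, the treatment of doublets and free RNA, or how cell types were named. The unit was worked out from the values: each column became whole UMIs (within 0.001, for 99.988% of nonzero values in control beta cells and 100% in the other columns) when multiplied by 1 whole number, taken as its cells: 829 control and 815 knockout beta cells, 142, 304 and 177 alpha cells and 101, 138 and 78 delta cells (control, first and second knockout column). The column numbers of the knockout mice are in no label, so they name no particular sample. The largest adjusted p-value in the authors' deposited tables was 0.00998, 0.0101 and 0.0103, so that genes are listed because they differed; these p-values come from cells and were used no further. The alpha-cell header is shifted by 1 column.

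Ratios are knockout over control with no pseudocount; for alpha and delta cells the mean of both mice is unweighted. Ratio intervals are Clopper-Pearson on the split of UMIs, and differences between cell types have normal counting intervals on the log2 scale; intervals and the floor of 3 UMIs cover counting error only. With 1 control mouse no test was made; a fold of 1.5 served for counts. Ratios and cell numbers were tested on simulated data. Members and the 20 gene lists were chosen with earlier results of these data known. Named genes are the members, up to 4 examples per list from both ends (others named were chosen after their values were seen), the 3 genes most like a member in level, and a fixed set. GENCODE M21, with 8231 of 8237 identifiers found, gave coordinates, and promoter sequences are RefSeq's (7 of 7 members matched). Alternatives were other scalings, a fold of 2 and a pseudocount, and in alpha and delta cells weighting by cells and leaving out a knockout mouse. Python 3.11.15, pandas 2.3.3, numpy 2.4.6 and scipy 1.17.1 were used.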

Additional observations from a re-analysis of the deposited data

How the results depend on the processing

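All 14 log2 ratios of the members kept their direction under the 76 values that alternatives gave, from -3.55 to -0.45. Without the first knockout column Slc16a3 in alpha cells is at 0 and gives no ratio. All 7 members in beta cells and all 5 in alpha cells were lower by a fold of 1.5 on each scale run. The 5 in alpha cells were so without either knockout column too. Knockout beta cells were pooled, so neither mouse could be left out there. At a fold of 2 the members lower in beta and alpha cells were 7 and 4, Fam162a being the one lost. In delta cells 2 members became 1 when scaled to the listed total, at a fold of 2 or without the second knockout column, Mif being the one lost. The background of genes lower by a fold of 1.5 (202, 56 and 37 in beta, alpha and delta cells) became 100, 22 and 15 at a fold of 2. Among genes at or above the median level it was 110 of 4097 (2.68%), 18 of 93 (19.4%) and 21 of 116 (18.1%). The shares of all listed genes were 2.47%, 30.1% and 16%.

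Differences between cell types depended on centring each table on its own median, which gave -0.70 for Bnip3, -0.75 for Mif and -1.29 for Fam162a (beta minus alpha), and 0.51 for Bnip3 and 0.27 for Mif (alpha minus delta); of these, both values of Bnip3 and both of Mif turned sign. Scaled to the listed total, Mif gave 0.25 (beta minus alpha) and -0.62 (alpha minus delta). Leaving out 1 knockout column gave -0.15 to 0.36 for Mif in beta minus alpha and -0.59 to -0.088 in beta minus delta, and -0.47 to 0.50 for Bnip3 in beta minus delta. It gave -1.08 to 0.56 for Ak4 in beta minus alpha. The listed genes of alpha cells were mostly lower and those of beta cells mostly higher, so the medians used for centring are of different genes. The longer core (ACGTGC or GCGTGC) was found in 5 of 7 members, in 30.6% of genes listed in beta cells and in 39.2% of those with GC in the range of 6 members.

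No paired analysis was possible because the labels give the mice no shared replicate numbers and there is 1 control mouse. Ak4 and Slc16a3 in alpha cells rest on 25 control UMIs each, and on 16 and 3, and 9 and 0, knockout UMIs.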
